A study of Mus musculus with 24 samples.

Results

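Mouse late 1-cell (L1C) embryos carried 181 protein-coding genes whose RNA was high at that stage and low both before fertilization and at the late 2-cell (L2C) stage. They were chosen from 21974 protein-coding genes by the values of 9 libraries of RNA taken without immunoprecipitation (inputs), with 3 libraries each of metaphase II (MII) oocytes, L1C embryos and L2C embryos. CPM is the estimated count of a gene divided by the library's column sum and multiplied by 1000000. A member had a mean L1C input CPM of at least 10 that was at least 3 times both the MII and the L2C mean. Of the 6916 protein-coding genes with an L1C input CPM of at least 10, 2.62% were members. By the form of their symbols, 8 of the 181 members were counted as gene models or clone names and 173 were not. The 173 include AW822073, which is also an accession-type name.

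All cells came from wild-type B6D2F1 mice, the cross of C57BL/6J with DBA/2N. Females were superovulated at 8 weeks of age with PMSG and then hCG. MII oocytes were taken from the oviducts 14 to 16 h after hCG and freed of cumulus cells with hyaluronidase, and embryos from matings with B6D2F1 males were cultured in KSOM and collected at 27 to 29 h (L1C) or 48 to 50 h (L2C). For each stage, SLIM-seq, a low-input immunoprecipitation with an m6A antibody (IP), gave 3 IP libraries beside the 3 inputs from the same batches of RNA. In a separate experiment, the cytoplasm of wild-type zygotes received Cas13d mRNA together with crRNAs that target Ythdc1 (Ythdc1 KD), or Cas13d mRNA alone (Ctrl), and both arms were collected at L2C. Each library pooled many oocytes or embryos, and Ctrl embryos received no non-targeting crRNA. In such bulk samples, fewer cells of a type and less RNA per cell cannot be told apart.

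A mouse oocyte finishes its growth transcriptionally silent and enters meiosis with a store of mRNAs, many of them with short poly(A) tails that are lengthened or shortened as translation is switched on or off. After fertilization most of this store is degraded, while the embryo's own genome is first read weakly and promiscuously in the zygote, with much poorly spliced RNA and many intergenic and intronic reads (minor genome activation), and then strongly in the 2-cell embryo (major genome activation). m6A, the commonest internal mark of mRNA, is bound in the nucleus by YTHDC1, a reader with known roles in splicing, polyadenylation, nuclear export and the control of retrotransposon RNA.

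A gain of CPM at L1C may therefore be new RNA or stored RNA, and the count tables set limits to telling them apart. The SLIM-seq counts were assigned to whole gene spans, introns included, so intronic RNA and RNA of an overlapping gene could enter a member's value. Per the study's methods the cDNA was primed with an anchored oligo-dT primer, so a longer poly(A) tail and more molecules of an mRNA cannot be told apart in these counts. The labels also name a stranded kit for total RNA, and counting by strand is not stated, so reads of overlapping genes on opposite strands cannot be separated here.

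Total estimated counts ran from 11107421 to 39739950 in the 18 SLIM-seq libraries, and the exon counts of the 5 KD and Ctrl libraries with the whole annotation ran from 8696476 to 14500548. Ythdc1, the KD target, stood at 194 and 202 CPM in KD replicates 1 and 2 and at 420, 427 and 395 CPM in the 3 Ctrl libraries, a log2 difference of -0.99 (SE 0.08, edgeR quasi-likelihood, adjusted p = 5.2e-08). KD replicate 3, whose table ended on chromosome 7, held 493 CPM of the shorter gene set, against 498 and 521 CPM in the other KD libraries and 1048 to 1138 CPM in Ctrl over that same set. The summed level of 19 oocyte markers was 24982 CPM in the median MII input, 10826 at L1C and 2735 at L2C, and that of 19 2-cell burst markers was 113, 221 and 1624 CPM. Summed cumulus markers fell with stage, from 52.65 CPM in the median MII input to 38.7 at L1C and 11.9 at L2C. At each stage 13 or 14 of the 18 genes were above 3 counts in at least 1 library. Summed sperm markers, of which 8 to 13 of 20 passed that mark, ran from 168 to 284 CPM. The labels do not say whether replicates were separate collections, so p-values measure the spread between these libraries only.

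Together the members held 3975 ± 184 CPM in the MII inputs, 22496 ± 629 in the L1C inputs and 4205 ± 220 in the L2C inputs (mean ± SD, n = 3 each). The median level over members was 9.56 CPM for MII, 50.2 for L1C and 5.84 for L2C, and the median of the members' own ratios was 4.48 over MII and 7.14 over L2C. These values chose the members, so they are given without a test. At L1C, 39 members lay between 10 and 20 CPM, 50 between 20 and 50, 44 between 50 and 100 and 48 at 100 CPM or more. Only 51 of the 181 also passed 5 times both stages, and 9 passed 10 times both. More members passed that ratio on the L2C side: 61 members were at least 10 times their L2C level, against 21 at least 10 times their MII level.

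**Figure D1:**
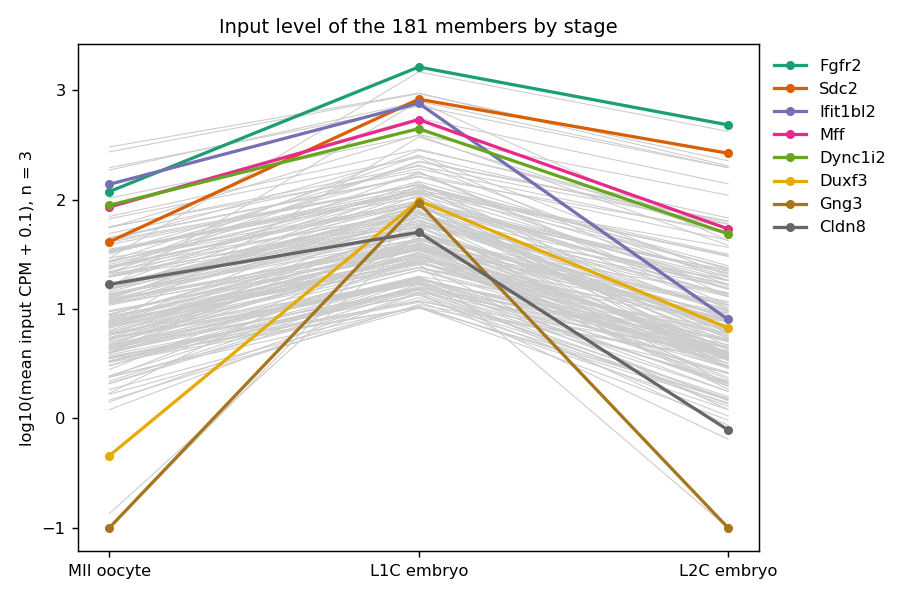
Mean input level of the 181 members at MII, L1C and L2C as log10(CPM + 0.1) of 3 libraries, 1 grey line per member and coloured lines for Fgfr2, Sdc2, Ifit1bl2, Mff, Dync1i2, Duxf3, Gng3 and Cldn8. Every line peaks at L1C because the rule requires it, and the medians are 9.56, 50.2 and 5.84 CPM.

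In 181 of 181 members the lowest L1C input lay above the highest MII and the highest L2C input. The rule chose members on the means of these same libraries, so this is a description and gives no support of its own. The median coefficient of variation over the 3 L1C inputs was 13.8%, and 2 members exceeded 50%, with the potassium channel gene Kcnh7 highest at 72.1%. L1C input replicate 1 held the highest value of 99 members, replicate 2 of 36 and replicate 3 of 46. Just inside the limits were the cytochrome P450 gene Cyp2b23 at 10.1 CPM, the tight-junction claudin Cldn8 at 3.003 times MII and the sarcoglycan gene Sgcz at 3.03 times L2C. Just outside were the nucleotidase Nt5c3 at 9.97 CPM, the deubiquitinase Usp11 at 2.998 times MII and Fam53b at 2.945 times L2C.

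The member with the highest L1C input CPM was Fgfr2, which encodes a receptor for fibroblast growth factors. Its MII inputs held 122, 124 and 109 CPM, its L1C inputs 1741, 1662 and 1484 CPM, and its L2C inputs 543, 453 and 450 CPM. All 3 L1C libraries were far above the others, but the annotated span, at chr7:130162451-133123350 on the minus strand of GRCm38, runs over 2960900 bases, of which 0.349% is exon. It overlaps 36 other spans on its own strand and 34 on the other, and summed over all of them the locus held 1818, 4308 and 1676 CPM at the 3 stages, failed the rule, and owed 37.8% of its L1C sum to Fgfr2. Within it lies Fam53b, the gene just outside the rule, with a mean of 163, 1638 and 556 CPM in the MII, L1C and L2C inputs. Because CPM is not divided by length, values of different genes are not compared as levels here.

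Ano2, a calcium-activated chloride channel at chr6:125690419-126040126 (plus strand, 1.54% exon), went from 35.7, 25.9 and 25.4 CPM in the MII inputs to 1509, 1635 and 1265 in the L1C inputs, and stood at 476, 408 and 377 in the L2C inputs. Sdc2, a heparan sulfate proteoglycan of the cell surface with 3.09% exon and no overlapping span, held 42.1, 41.8 and 39.2 CPM in the MII inputs, moved to 1095, 640 and 747 in the L1C inputs and then stood at 288, 228 and 280 in the L2C inputs. In both genes a good part of the L1C signal was still present at L2C, and all 3 L1C libraries lay above all 6 others. Khdrbs2, an RNA-binding protein of the STAR family, moved from 9.57, 6.22 and 4.94 CPM to 414, 418 and 292, and then to 55.1, 47.2 and 41.3. Its span (2.12% exon) overlaps Gm37110, an annotated model of type TEC on the same strand that itself held 1312, 14694 and 9149 CPM in the MII, L1C and L2C inputs. When all overlapping spans were summed, the locus held 1319, 15069 and 9197 CPM and no longer met the rule.

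In 3 other members the L1C inputs stood out as clearly and the locus sum also met the rule. Ifit1bl2, a relative of the interferon-induced IFIT proteins, held 132, 139 and 143 CPM in the MII inputs, moved to 808, 774 and 698 in the L1C inputs and then stood at 8.28, 8.27 and 7.25 in the L2C inputs. Mff, the receptor that recruits the fission GTPase to mitochondria, held 87.7, 84.3 and 84.6 CPM in the MII inputs, moved to 591, 522 and 503 in the L1C inputs and then stood at 57.7, 43.9 and 60.2 in the L2C inputs. Dync1i2, an intermediate chain of cytoplasmic dynein, held 88.1, 85.5 and 92.7 CPM, then 503, 397 and 435, and then 49.7, 46.7 and 49.6. In all 3 genes every L1C input was above, and every L2C input below, the MII inputs. Dync1i2 overlaps no other span, Ifit1bl2 overlaps 1 on the opposite strand, and Mff 1 on each strand.

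Most of the remaining members among the 15 with the highest CPM are given by their means at MII, L1C and L2C. Cnst, which encodes a protein of connexin traffic, held 303, 942 and 204 CPM. Tent5b, of a family of noncanonical poly(A) polymerases, held 273, 931 and 227 CPM, and Xrcc4, a cofactor of DNA ligase in end joining, held 88.5, 554 and 139 CPM. Each of the 3 had its lowest L1C library above all 6 libraries of the other stages. Spag16, an axoneme protein gene with 0.753% exon, held 55.2, 392 and 110 CPM, and Dennd6a, an exchange factor for Rab GTPases, held 103, 386 and 38.2 CPM. Fam160a1 stood at 186, 785 and 42.1 CPM, but the overlapping same-strand gene Gm37240 held 236, 2240 and 990 CPM and the summed locus, at 422, 3025 and 1032 CPM, failed the rule. Dnajc14, an Hsp40 co-chaperone, stood at 195, 714 and 196 CPM, and with the spans that overlap it, among them Sarnp on the same strand and Ormdl2 on the other, the locus held 221, 789 and 284 CPM and also failed it.

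**Figure D2:**
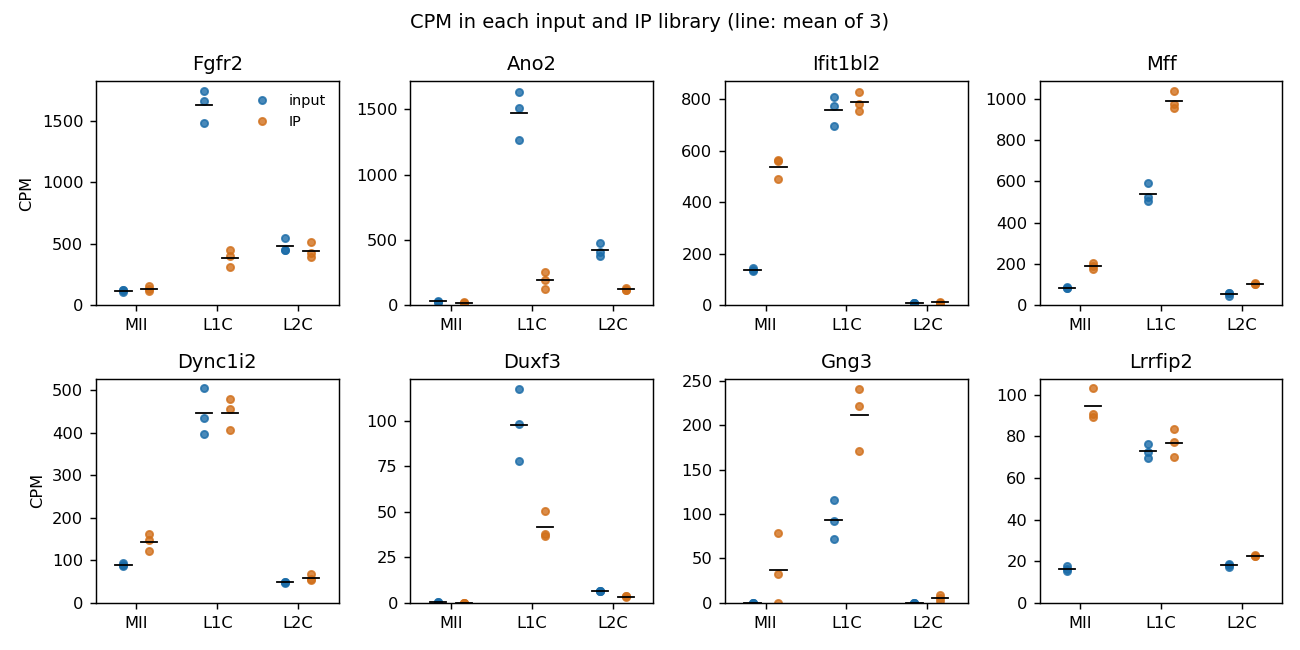
CPM on linear axes of 8 members in each input (blue) and IP (orange) library of MII, L1C and L2C, with a line at the mean of 3. The 3 L1C inputs lie above all other inputs in each panel, while the IP points follow them in Mff, stay low in Ano2 (125 to 252 CPM at L1C) and are highest at MII in Lrrfip2 (89.2 to 103 CPM).

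Some members have no annotated intron in the counted span, so no annotated intron adds to their counts. The origin of their reads was not tested. In 7 members (3.87%, against 2.01% of the 6916 expressed genes) exons covered at least 90% of the span, and 5 of these overlap no other gene. The other 2 were Pigc, of glycolipid anchor synthesis, and the small GTPase Rap2b. The promoter windows of 3 of the 5, read from RefSeq on GRCm38.p6, are shown because these genes have neither annotated introns nor an overlapping span. Each holds 300 bases around an annotated start on the minus strand, at chr10:58233040-58233339 (Duxf3), chr7:103670980-103671279 (Olfr624) and chr7:5125901-5126200 (Rasl2-9). Capitals mark CCAAT in Duxf3 and GGGCGG, on either strand, in Rasl2-9, while the Olfr624 window held none of the 6 motifs searched. The starts lie 414, 162 and 0 bases from the 5′ end of the counted gene spans.
Duxf3: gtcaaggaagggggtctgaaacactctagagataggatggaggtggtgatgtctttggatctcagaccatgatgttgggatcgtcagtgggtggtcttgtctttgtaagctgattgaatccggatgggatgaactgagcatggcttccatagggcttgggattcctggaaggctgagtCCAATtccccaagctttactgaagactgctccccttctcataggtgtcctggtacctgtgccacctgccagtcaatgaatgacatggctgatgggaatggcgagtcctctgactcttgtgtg
Olfr624: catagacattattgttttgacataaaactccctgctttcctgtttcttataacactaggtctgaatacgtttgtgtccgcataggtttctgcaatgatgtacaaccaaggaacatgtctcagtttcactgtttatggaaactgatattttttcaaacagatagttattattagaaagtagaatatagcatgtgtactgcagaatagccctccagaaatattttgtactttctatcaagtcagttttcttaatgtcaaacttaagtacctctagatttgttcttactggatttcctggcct
Rasl2-9: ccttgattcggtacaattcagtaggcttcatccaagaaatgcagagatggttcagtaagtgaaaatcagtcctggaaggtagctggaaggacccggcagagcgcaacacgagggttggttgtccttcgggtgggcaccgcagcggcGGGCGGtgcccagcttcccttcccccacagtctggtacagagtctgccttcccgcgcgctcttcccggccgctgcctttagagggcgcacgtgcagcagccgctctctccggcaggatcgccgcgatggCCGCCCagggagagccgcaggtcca

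Duxf3 is the mouse Dux gene, a double homeobox factor that is known to switch on genes and repeats of the 2-cell embryo, and lies at chr10:58229979-58232675. Its MII inputs held 0.388, 0.149 and 0.531 CPM, its L1C inputs 78.2, 117 and 98.4 CPM and its L2C inputs 6.57, 6.475 and 6.81 CPM. AW822073, its neighbour at chr10:58222972-58224930, held 0.0429, 0 and 0.0616 CPM in the MII inputs, moved to 33.0, 65.2 and 48.6 in the L1C inputs and then stood at 4.201, 2.65 and 3.14 in the L2C inputs. Both were near zero in every MII library. Dux genes lie in a tandem repeat of near-identical copies, and how the reads were split between copies is uncertain, so the 2 genes are not separate pieces of evidence.

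Olfr624, an olfactory receptor gene at chr7:103665461-103671191, went from 14.5, 14.2 and 18.5 CPM at MII to 747, 1124 and 507 at L1C and stood at 241, 141 and 207 at L2C. Rasl2-9, an intronless relative of the GTPase RAN at chr7:5124938-5125950 that may share reads with close copies, held 3.59, 3.38 and 4.74 CPM, then 25.01, 20.8 and 22.2, and then 3.58, 3.56 and 5.68. Cldn8, at chr16:88560828-88563183, held 16.0, 16.8 and 17.4 CPM in the MII inputs, moved to 50.3, 46.0 and 54.4 in the L1C inputs and then stood at 0.730, 0.852 and 0.471 in the L2C inputs. The 5 intronless genes without overlapping spans differed in their MII level: Duxf3 and AW822073 lay below 1 CPM, and Rasl2-9, Olfr624 and Cldn8 at 3.38 to 18.5 CPM. The ratio of Cldn8 over MII was near the limit the rule sets.

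Outside the intronless set, some of the largest ratios came with shared loci. Gng3, a G protein gamma subunit, was listed at 0 in all 3 MII and all 3 L2C inputs and at 92.5, 71.8 and 116 CPM in the L1C inputs. Its MII IP libraries held 32.8, 78.4 and 0 CPM, and its exons held 28.1 to 34.3 CPM in the Ctrl embryos at L2C. The opposite-strand gene Bscl2, which encodes seipin of lipid droplets, overlaps it with 917, 327 and 134 CPM, and the locus sum ran through the stages from 921 to 427 to 140 CPM. Samd10 was likewise listed at 0 in the MII inputs, with 66.3, 81.1 and 77.4 CPM at L1C, beside its opposite-strand partner Prpf6, a component of the U5 snRNP, at 368, 268 and 49.6 CPM. Both genes share their span with another gene, and how the estimates divided reads between them was not tested, so no ratio is given against these zeros.

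Ttbk2, a kinase of ciliogenesis, held 6.30, 2.38 and 2.99 CPM in the MII inputs, moved to 53.7, 152 and 57.8 in the L1C inputs and then stood at 3.69, 6.72 and 1.17 in the L2C inputs. The L1C libraries were all above the rest, with replicate 2 well above its partners, while the overlapping gene Cdan1 held 4.88, 1.64 and 45.7 CPM and the locus failed the rule. Cd200, an immunoglobulin-type surface protein with no overlapping span, is a plainer case, with 1.03, 1.095 and 1.19 CPM before fertilization, 17.3, 13.1 and 11.3 in the L1C inputs, and 0.438, 0.651 and 0.550 by L2C. Its L1C mean was 12.6 times MII and 25.45 times L2C.

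Over all members, 80 (44.2%) overlapped no other gene span, 46 (25.4%) overlapped at least 1 on the same strand and 80 (44.2%) overlapped at least 1 on the opposite strand. The same shares over the 6916 expressed genes were 43.4%, 26.2% and 45.3%, so overlap was about as common among members as around them. When CPM was summed over each member and the spans that overlap it, 152 members still met the rule and 29 did not. The median span was 31320 bases against 31854.5, and exons filled 13.9% of it against 15.8%. Spans with under 5% exon were 24.9% of members and 14.3% of expressed genes.

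Exon counts of L1C embryos were not analysed here, so the share of intronic signal could be read only at L2C and only across separate experiments. For each gene the L2C input CPM over the span was divided by the Ctrl exon CPM, each with 0.5 added, on a log2 scale. The median was 0.85 over members and 0.43 over expressed genes, and 41 members (22.7%, against 20.1%) exceeded 2. These 41 held 47.2% of the members' summed L1C input CPM. Another 66 members (36.5%, against 39.7%) lay below 0, where the exons held more than the span.

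The examples covered both ends. Fgfr2 held 482 CPM over its span and 1.48 CPM over its exons, and Ano2 held 420 and 1.37 CPM. Sdc2 held 265 CPM over its span and no exon count in any of the 5 KD and Ctrl libraries with the whole annotation. At the other end, Mff held 53.9 CPM over the span and 70.0 to 78.5 CPM over exons in Ctrl, Cyb5a, an electron carrier of the endoplasmic reticulum, 6.96 and 78.6 to 82.1 CPM, and the ribosomal protein gene Rpl17, which has pseudogene copies, 3.07 and 109 to 123.3 CPM. The measure is not one of introns alone, because the intronless Olfr624 also exceeded 2, at 197 CPM over the span and 6.43 to 6.55 over exons, as did Duxf3 and AW822073, whose Ctrl exon counts were at most 3 per library. The exon tables left out reads with several alignments. In 17 members the 3 Ctrl libraries together held 3 exon counts or fewer, and in 11 of these none.

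**Figure D3:**
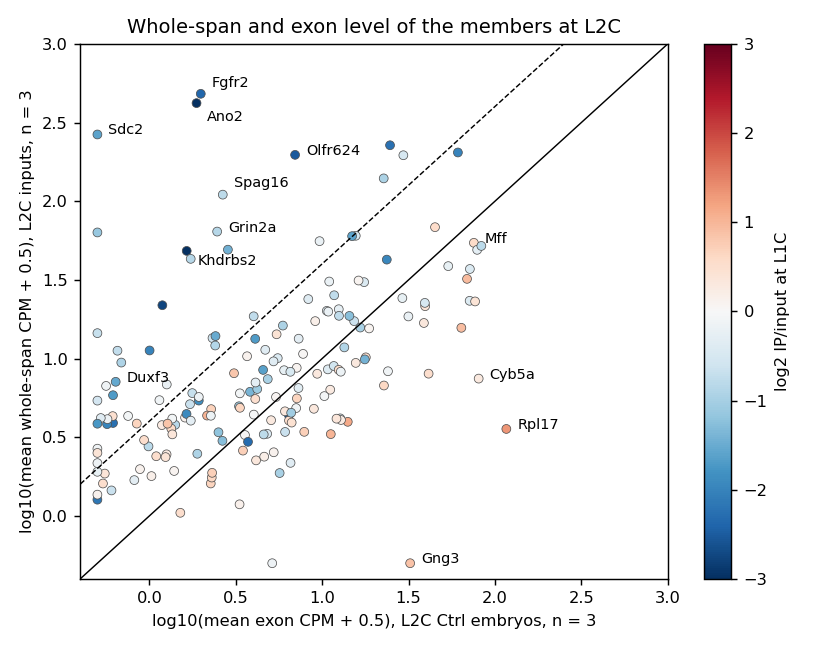
Log10(span CPM + 0.5) in the L2C inputs (vertical) against log10(exon CPM + 0.5) in the L2C Ctrl embryos (horizontal), each point a member and the mean of 3 libraries, coloured by log2 IP/input at L1C. The solid line marks equal values and the dashed line a log2 ratio of 2, above which lie 41 members, with a median log2 IP/input of -0.87 against -0.09 for the rest.

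With these 2 properties every member falls in 1 of 4 classes, drawn after the values were seen. The first holds 61 members with no overlap and a log2 span to exon ratio of at most 2, among them Cnst, Dync1i2, Cldn8, Rasl2-9, Cd200 and Tfam. Their median L1C input CPM was 35.9, with median ratios of 4.42 over MII and 8.34 over L2C. The second holds 56 of the rest that overlap another span but whose locus sum met the rule, such as Ifit1bl2, Mff, Dennd6a, Me1 and Cyb5a, with 4.55 and 7.23. The third holds 23 members whose locus sum failed it, among them Fam160a1, Gng3, Samd10, Ttbk2, Per3 and Stat6, with 3.79 and 7.91. The last holds the 41 members above 2, with 6.15 and 5.16, and 35 of them met the rule on the locus sum. Their L2C input CPM enters both the split and the ratio over L2C, so that ratio is lowered by construction.

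The rule did not use the IP libraries, but they came from the same batches of RNA as the inputs that chose the members. The tests below therefore ask whether the stages differed by more than the spread of the IP libraries, and are not independent support for the high L1C level. Summed over members, the IPs held 6004 ± 77.1 CPM (MII), 17478 ± 746 CPM (L1C) and 3315 ± 69.0 CPM (L2C) (mean ± SD, n = 3 each). Against the MII IP, 167 of 181 members were higher in the L1C IP and 2 were lower (edgeR quasi-likelihood, adjusted p under 0.05), and 12 did not pass. Over all protein-coding genes tested 29.7% were higher and 25.7% lower. The members' median log2 difference was 1.49, against 0.12 over all those genes. Against the L2C IP, 179 members were higher and 2 did not pass, where 40.1% of all protein-coding genes were higher and 39.7% lower, and the median was 3.04 against 0.02. The 2 contrasts share the L1C IP libraries, and IP levels carry RNA abundance and antibody enrichment together. The oocyte markers went the other way from MII to L1C in the same libraries, from a median sum of 28160 CPM in the MII IP to 12805 at L1C and 3798 at L2C, and their part in these counts was not tested.

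Mff held 189, 174 and 204 CPM in the MII IP, 1035, 976 and 955 in the L1C IP and 104, 101 and 107 in the L2C IP. The L1C level was above MII by 2.19 log2 (SE 0.12, edgeR adjusted p = 1.2e-10) and above L2C by 3.53 (SE 0.13, adjusted p = 1.3e-14). Rasl2-9 had the same order, with 7.66, 6.58 and 6.63 CPM, then 49.5, 46.2 and 40.9, and then 7.06, 5.76 and 7.09. Its log2 differences were 2.51 (SE 0.19, adjusted p = 5.3e-09) and 3.05 (SE 0.20, adjusted p = 3.3e-11). Duxf3 was near absent from the MII IP, at 0.0628, 0 and 0 CPM, and held 37.9, 36.5 and 50.7 CPM at L1C and 3.53, 3.63 and 3.31 at L2C. AW822073 had no count in any MII IP library against 13.8, 13.5 and 18.4 CPM at L1C, which is at least 95.5-fold higher on a floor of 3 counts in each MII IP library.

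Not every member followed. Ifit1bl2 was already abundant in the MII IP, at 559, 488 and 565 CPM, and stood at 830, 781 and 755 in the L1C IP, a log2 difference of 0.35 (SE 0.10, edgeR adjusted p = 0.0049). The 2 members that fell were Lrrfip2, of innate immune signalling, and Ip6k2, an inositol hexakisphosphate kinase. Lrrfip2 held 103, 89.2 and 90.9 CPM in the MII IP and 77.4, 70.2 and 83.5 in the L1C IP, a log2 difference of -0.50 (SE 0.11, adjusted p = 7.5e-04), while its inputs held 15.5 to 17.6 CPM at MII and 69.5 to 76.1 at L1C. Ip6k2 went from 86.8, 92.4 and 97.7 to 78.9, 74.6 and 83.9 CPM in the IPs (log2 -0.42, SE 0.16, adjusted p = 0.030). The groups do not overlap in either gene, but the Ip6k2 call was lost under 6 of the other settings, with an adjusted p of up to 0.239: by library size alone, from the IP libraries alone, and without L1C IP replicate 1 or 2 or MII IP replicate 2 or 3. Tfam, the packaging factor of mitochondrial DNA, held 18.6, 16.6 and 18.0 CPM in the MII IP and 19.2, 16.6 and 18.6 in the L1C IP and did not pass (log2 -0.17, SE 0.18, adjusted p = 0.45).

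The other members that did not pass against MII were Tent5b, Fam160a1, Bag4, Ntm, Asnsd1, Zfp709, Rfx5, C130060K24Rik, Zfp182, Ceacam2 and Mettl18, named after their values were seen. Tent5b and Bag4 passed by library size alone (log2 0.62 and 0.58). Against L2C the exceptions were Ispd and Fgfr2. Fgfr2 held 311, 445 and 399 CPM in the L1C IP and 428, 513 and 391 in the L2C IP, which overlap (log2 0.09, SE 0.15, edgeR adjusted p = 0.59), beside a ratio of 3.38 in the inputs. The rule itself, applied to IP CPM in place of input CPM, was met by 88 of the 181 members and by 114 of the 6916 expressed genes (1.65%).

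IP/input, the log2 ratio of IP to input at 1 stage scaled by TMM, is a relative measure of m6A enrichment, and here its denominator is the input that chose the members. It is therefore described without a test. At MII the members' median was 0.37, with 121 of 181 above 0 (46.9% of all protein-coding genes tested) and 42 above 1 (23.2%, against 6.30% of expressed genes). At L1C the median was -0.24, with 69 above 0 (49.6% of all genes) and 34 below -1 (18.8%, against 14.8% of expressed genes). At L2C it was -0.06, with 84 above 0 (49.4% of all genes). Medians over the 6916 expressed genes were -0.16, -0.19 and -0.12. In 155 of 181 members the L1C ratio was lower than the MII ratio, and a high L1C input, on which the choice was made, lowers the L1C ratio by construction. The rule also chose MII and L2C inputs that were low beside L1C, which raises the ratios of those stages by construction. The MII counts above 0 and above 1 and the fall to L1C are therefore partly set by the choice. TMM scaling set the middle of these ratios: by library size alone the median of all protein-coding genes moved by 0.29 at L1C, 0.16 at MII and 0.25 at L2C, and the members' L1C median stood at 0.07.

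**Figure D4:**
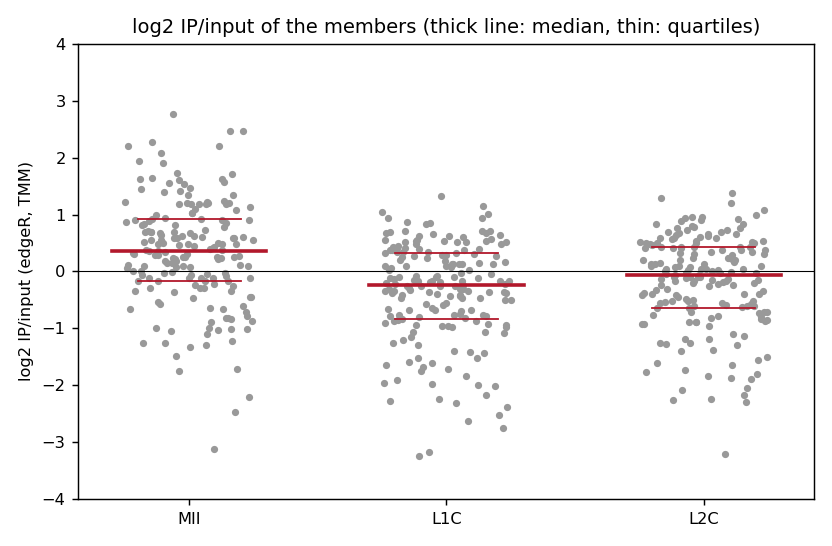
Log2 IP/input (TMM-scaled) of the members at MII, L1C and L2C, 1 grey point per member, with red lines at the median (thick) and the quartiles (thin). The medians are 0.37, -0.24 and -0.06, and 3 members at MII and 1 at L2C lie outside the axis.

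The lowest L1C values belonged to Ano2 at -3.25 (SE 0.23), Khdrbs2 at -3.18 (SE 0.26) and Ptk2b, a focal adhesion-type kinase, at -2.76 (SE 0.26). All 3 are in the class with span far above exon CPM. In Ano2 the L1C IP held 125, 252 and 191 CPM against 1265 to 1635 in the inputs. The highest values among members with an established name and enough counts were Rpl17 at 1.33 (SE 0.19), the transporter Slco1a5 at 1.05 (SE 0.21) and Tex26, a testis-expressed gene, at 1.02 (SE 0.19). Rpl17 held 97.1, 85.5 and 76.2 CPM in the L1C IP and 33.0, 28.4 and 21.8 in the L1C inputs, with every IP library above every input.

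By class, the median L1C ratio was 0.06 for the 61 members without overlap, -0.09 for the 56 with a passing locus, -0.25 for the 23 with a failing locus and -0.87 for the 41 with span far above exon CPM. The Spearman correlation of the L1C ratio with the span to exon ratio was -0.45 over the 181 members and -0.46 over the 6916 expressed genes. Those genes share libraries and depth, and the correlation is a description across genes. It had a similar size in members and in the genes around them. At MII the medians of the 4 classes were 0.48, 0.60, 0.51 and -0.03.

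Ythdc1 KD was measured over exons at L2C, in embryos independent of those that chose the members. The low L2C level of the members was set on span counts of the inputs and does not carry over to these exon counts. In 66 of the 181 members the Ctrl exons held more CPM than the L2C span. Some, such as Rpl17, Cyb5a and Rap2b, also held more than in the L1C inputs. Without exon counts at L1C, a fall from L1C to L2C cannot be read from these libraries. Of the 181 members 151 passed the filter on low counts, which the KD or the Ctrl level alone could satisfy. In the 5 libraries, 77 of these were lower in Ythdc1 KD than in Ctrl and 32 were higher (edgeR quasi-likelihood, adjusted p under 0.05), and 42 did not pass. That is 51.0% lower and 21.2% higher, against 35% lower and 33% higher over the 12919 protein-coding genes tested. The median log2 difference was -0.52 over members and -0.03 over all those genes, and 57 members fell and 19 rose by more than 1 log2 (37.7% and 12.6%, against 21% and 13.5% of all those genes). Summed exon CPM of the members was 1582 and 1606 in KD and 2051, 2068 and 2023 in Ctrl. In the same libraries the 2-cell burst markers summed to 1295 and 1346 CPM in KD and 2486 to 2527 in Ctrl, and the oocyte markers to 15345 and 15793 against 15105 to 16766. The sperm and spermatid markers summed to 53.1 and 55.3 CPM in KD and 91.4 to 106.9 in Ctrl, with 5 and 10 of 20 genes above 3 counts in a library. The part of embryo stage, or of what these markers follow, in the members' differences was not tested.

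Among members that fell, Cyb5a held 20.4 and 18.7 CPM in KD and 78.6, 82.1 and 79.6 in Ctrl, a log2 difference of -1.96 (SE 0.11, edgeR adjusted p = 1.3e-09). Rras2, a RAS-related GTPase, held 24.6 and 22.8 against 78.1, 76.0 and 74.9 CPM (log2 -1.61, SE 0.11, adjusted p = 6.8e-09). Per3, of the circadian clock, held 28.9 and 28.4 against 86.3, 79.1 and 83.5 CPM (log2 -1.46, SE 0.10, adjusted p = 1.3e-08). The cytosolic malic enzyme gene Me1 fell by 1.41 (SE 0.10, adjusted p = 1.9e-08), and Mff by 0.74 (SE 0.11, adjusted p = 3.5e-05) from 70.0 to 78.5 CPM in Ctrl to 46.8 and 38.3 in KD. In all 5 genes every KD library lay below every Ctrl library. Of the other members with the highest L1C CPM, Xrcc4, Tent5b and Fam160a1 also fell, by 1.46, 0.94 and 0.81 log2 (edgeR adjusted p = 1.3e-06, 7.3e-05 and 1.0e-04). Spag16, Cnst and Dnajc14 fell by 1.83, 0.35 and 0.36 log2 (edgeR adjusted p = 0.0064, 0.0067 and 0.046). The call of Spag16 was lost without KD replicate 2 (adjusted p = 0.0817), that of Cnst without KD replicate 1 (adjusted p = 0.0894), and that of Dnajc14 with DESeq2 and without Ctrl replicate 2 or KD replicate 1 (adjusted p = 0.147, 0.251 and 0.403). Ano2 rose by 1.65 from 0.966 to 1.84 CPM in Ctrl to 3.11 and 4.90 in KD (adjusted p = 0.0011).

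Among the intronless genes, Cldn8 had no count in either KD library against 51, 21 and 29 counts in Ctrl, at least 9.76-fold lower in KD on a floor of 3 counts in each KD library (adjusted p = 2.0e-05). Rasl2-9 had none against 12, 27 and 21 counts, at least 6.14-fold lower (edgeR adjusted p = 1.8e-04). Both genes passed the filter on low counts through Ctrl alone, so only a fall could be called. Olfr624 held 4.09 and 3.54 CPM in KD and 6.55, 6.43 and 6.44 in Ctrl (log2 -0.68, SE 0.24, edgeR adjusted p = 0.021), a call lost with DESeq2, with all 6 libraries, and without Ctrl replicate 1 or 2 or KD replicate 2, at adjusted p of 0.051 to 0.183. Duxf3 and AW822073 had at most 3 counts in any of the 5 libraries and were not tested. Across the class of 61 members without overlap, 55 were tested, of which 33 fell and 6 rose, with a median log2 of -0.94. In the class with span far above exon CPM, 22 were tested, 7 fell and 9 rose, with a median of -0.07. The Ctrl exon level that defines this class is also the denominator of the KD difference, so a class of low Ctrl values leans towards higher KD values by construction. The classes with passing and failing loci had 26 lower and 11 higher of 53, and 11 lower and 6 higher of 21. The difference between the classes was not tested.

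Among members that rose, the zinc finger gene Zfp870 held 8.09 and 4.38 CPM in KD and 0, 0.310 and 0 in Ctrl (log2 5.76, SE 0.63, edgeR adjusted p = 1.1e-06), a difference that rests on 4 counts in Ctrl. Zfp870 passed the filter on low counts through KD alone, so only a rise could be called. Tfam held 19.5 and 16.9 against 6.21, 5.57 and 7.93 CPM (log2 1.56, SE 0.18, adjusted p = 2.0e-06). Mum1, a PWWP-domain protein gene, held 28.2 and 36.0 against 13.65, 14.2 and 15.4 CPM (log2 1.23, SE 0.13, adjusted p = 1.2e-06). Bag4, a co-chaperone of the BAG family, held 24.9 and 25.2 against 12.3, 11.6 and 9.77 CPM (log2 1.22, SE 0.14, adjusted p = 2.8e-06). No KD library overlapped the Ctrl libraries in these genes. Other members did not pass: Dync1i2 held 79.7 and 79.1 against 78.7, 81.3 and 75.4 CPM (log2 0.09, SE 0.09, adjusted p = 0.40), and Ifit1bl2 5.07 and 5.52 against 5.17, 5.65 and 5.75 CPM (log2 0.02, SE 0.23, adjusted p = 0.96).

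**Figure D5:**
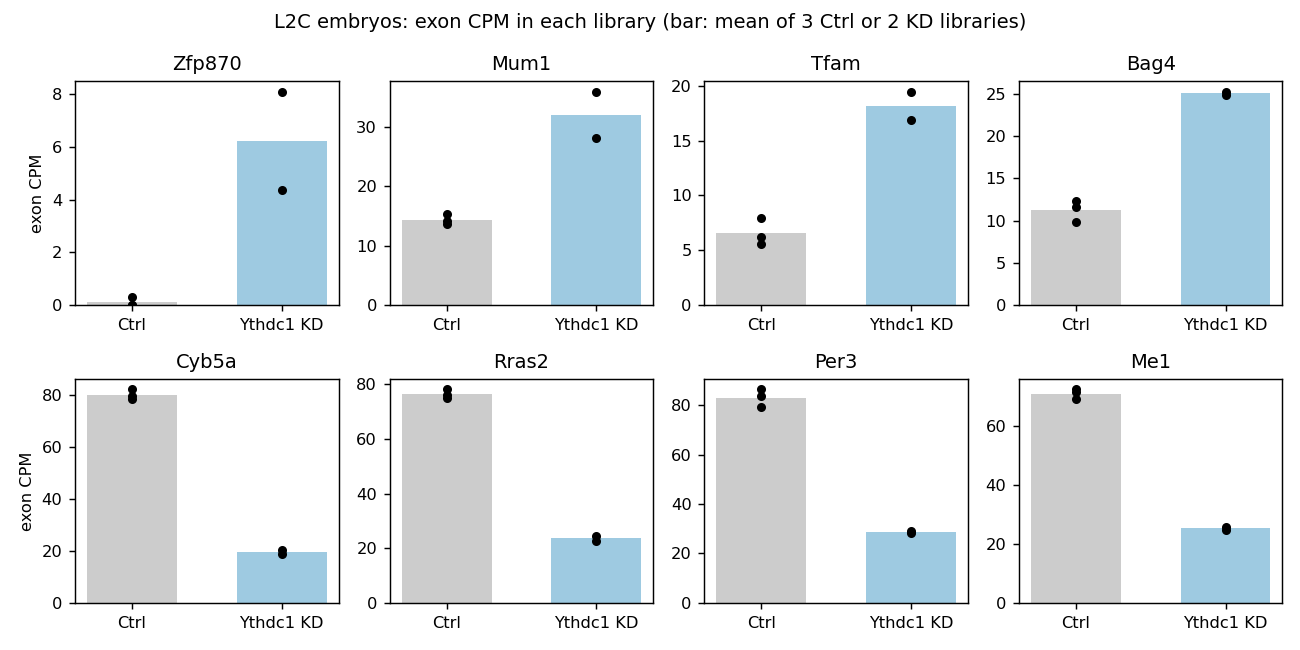
Exon CPM at L2C of 4 members that rose (top) and 4 that fell (bottom) in Ythdc1 KD, with points for single libraries and bars at the mean of 3 Ctrl or 2 KD libraries. The KD points lie apart from the Ctrl points in all 8 panels, for example at 18.7 and 20.4 CPM against 78.6 to 82.1 CPM in Cyb5a.

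Of 27 gene lists looked up, 12 held at least 1 member. A list is a set of symbols or of symbol beginnings and covers only part of the class it is named for, so its counts are those of the listed genes. The lists' counts stand beside 92.3% of all members higher in the L1C IP than at MII and 98.9% than at L2C (29.7% and 40.1% of all protein-coding genes tested), and beside 51.0% of members lower and 21.2% higher in the KD (35% and 33% of all genes). No list was tested against those shares. The zinc finger list held the most, 13 of its 195 genes with an L1C CPM of at least 10 (6.67%, against 2.62% of all such genes). They were Zfp111, Zfp182, Zfp345, Zfp35, Zfp383, Zfp58, Zfp61, Zfp709, Zfp78, Zfp870, Zfp963, Zim1 and Zscan20, mostly proteins of the KRAB type that recruit silencing factors to DNA. Of the 13, 11 were higher in the L1C IP than in the MII IP and 13 than in the L2C IP, and of 11 tested in the KD 5 fell and 3 rose. The list of receptor symbols held 6 of 72 and leaves out other receptor genes among the members. Its 6 include Fgfr2, Grin2a, Htr5a and Il10rb, with all 6 higher in the L1C IP than at MII, 5 of them higher than at L2C, and 2 of 5 tested lower in the KD. The list of small GTPases and their regulators held 6 of 121 (Rap2b, Rab37, Rasl2-9, Rhoh, Tbc1d7 and Arl14epl), all higher in the L1C IP than in either other IP, with 3 lower and 2 higher of 5 in the KD. Members with such roles but other symbols, such as Rras2, Rabl3, Dennd6a and Rpgr, stand outside it, and of these 4 the first 3 fell in the KD, by 1.61, 1.30 and 0.42 log2 (edgeR adjusted p = 6.8e-09, 5.9e-05 and 0.0028), while Rpgr was at 0.57 (adjusted p = 0.12). The call of Dennd6a was lost without KD replicate 2 (edgeR adjusted p = 0.057).

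Solute carriers, ion channels and genes with a Tmem symbol, taken as 1 list, held 4 of 219 (Kcnh7, Slc35b4, Slco1a5 and Tmem164), and all 4 were higher in the L1C IP against both stages, with 3 lower and 1 higher in the KD. The channel genes Ano2, which rose in the KD, and Grin2a, in the receptor list, are not counted in it. Among the 3 lower members of that list, the call of Slco1a5 was lost with DESeq2 (log2 -1.57, DESeq2 adjusted p = 0.104) and without KD replicate 1 or 2 (log2 -1.62 and -1.56). RNA processing factors held 3 of 86, the poly(A)-binding protein gene Pabpc1l, the poly(A) polymerase gene Papolg and Rbm48, all higher in the L1C IP against both stages, and 2 of the 3 were higher in the KD. Chaperones held 2 of 52 (Bag4 and Dnajc14, 1 higher and 1 lower in the KD), olfactory receptors 2 of 7 (Olfr624 and Olfr976, both lower in the KD) and secreted ligands 2 of 24 (Cxcl14 and Tnfsf10, not tested there). Each of these 6 was higher in the L1C IP against both stages, save Bag4 against MII. Single members came from the ribosomal proteins (Rpl17, of 4 genes), a mixed list of minor genome activation and other zygotic factors (Duxf3, of 14), cyclins and their kinases (Cdk17, of 38) and the ubiquitin system (Ube2w, of 188). All 4 were higher in the L1C IP against both stages, and in the KD Rpl17 and Ube2w rose and Cdk17 fell.

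None of the symbols in the other 15 lists was a member. Among them were 2-cell burst markers (8 genes with an L1C CPM of at least 10), DNA replication factors (45), RNA polymerase subunits and general transcription factors (87), spindle and kinetochore genes (60), and subunits of oxidative phosphorylation (34). Another was a list named for maternal mRNAs activated by polyadenylation (34), which shares Gdf9 and Zp2 with the oocyte markers. Whether each of its genes is activated in this way was not tested. The rest were mitochondrial ribosomal proteins (43), a list of adhesion molecules (34 genes, without such members as Ntm, Ceacam2 and Dsc2), oocyte markers (18), m6A writers, erasers and readers (16), genes the study named for these experiments (16), replication-dependent histones (4), immediate-early genes (4), cumulus markers (1) and sperm markers (1).

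In RefSeq promoter windows, matched by gene for 137 of the 181 members, GGGCGG was present in 55.5%, CCAAT in 36.5%, TGACGT in 8.76%, TATAAA in 8.03%, AAGGTCA in 5.84% and TAATCC in 4.38%, with both strands searched and overlapping matches allowed. Over the windows of 5493 expressed genes the shares were 65.8%, 40.9%, 12.9%, 6.26%, 2.84% and 5.22%, and over all 32851 windows 35.7%, 37.4%, 7.51%, 13.6%, 4.72% and 7.06%. The median member window was 58.3% G or C and held 15 CG dinucleotides, against 61% and 22 for expressed genes. The windows of Duxf3 and Olfr624 printed above are at the low end, with 3 and 2, and that of Rasl2-9 held 23.

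The ends of the transcripts were searched because the known elements that lengthen poly(A) tails in the cytoplasm lie there. In the last 100 bases of the longest coding transcript, 18 of 180 members (10%) held TTTTAT or TTTTAAT, the sequence core bound by CPEB, against 20.7% of 6900 expressed genes. The hexamer AATAAA or ATTAAA was found in 116 (64.4%, against 82.3%), and both in 11 (6.11%, against 17.7%). These are matches in annotated ends, on the transcript strand, and say nothing of binding. Windows of 3 of the 11 are shown, 30 bases each on GRCm38, with the elements in capitals (they overlap in Rpgr), from chr2:120732826-120732855 (Ttbk2, minus strand), chrX:10158227-10158256 (Rpgr, a cilium GTPase regulator, minus strand) and chr10:127660928-127660957 (Stat6, a transcription factor of cytokine signalling, plus strand).
Ttbk2: TTTTATaatctagtAATAAAacattcagtc
Rpgr: TTTTAATAAActatgtctggttggttctgc
Stat6: taaAATAAATTTTATtccaaaataacaaaa

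The longest coding transcripts had a median of 2822 bases in members and 3336 in expressed genes. GGACT, the commonest core in which m6A is placed, occurred at a median of 1 per kilobase of transcript in members and 1.02 in expressed genes.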

How the data were processed

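SLIM-seq used IP and input libraries of MII oocytes, L1C and L2C embryos (3 each), and RNA-seq compared Ythdc1 KD with Ctrl embryos at L2C. Per the labels and the study's methods the authors trimmed reads with Trimmomatic and made the deposited SLIM-seq estimated counts with kallisto, whose targets were whole gene spans with introns (checked on the files, GRCm38). The same deposited files also give TPM, which was not used. The deposited KD counts are read pairs over exons from featureCounts on HISAT2 alignments (GRCm38), and per the file headers reads with several alignments or overlapping several genes were not asked for and no strand was set. The table of KD replicate 3 ends on chromosome 7 (5439131 counts), so the fit used KD replicates 1 and 2 and Ctrl replicates 1 to 3, and all 6 libraries served as an alternative. The processing notes name mm10 beside GRCm38.

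CPM was computed on column sums. Estimated counts were rounded to whole numbers, and edgeR 4.0.16 (filterByExpr, TMM, quasi-likelihood) was fitted to the 18 SLIM-seq libraries with 1 coefficient per stage and library kind, and separately to the KD counts, with Benjamini-Hochberg adjustment over every gene tested and a threshold of 0.05. DESeq2 1.42.0, library size alone, no filter, a replicate block and leaving out each library were alternatives. On simulated counts the fit recovered 107 of 200 changed genes among 17326 for L1C IP against MII IP (89 of 100 changed 4-fold), 111 of 200 (87 of 100) for L1C IP against L2C IP, and 86 of 200 among 13213 (78 of 100) for the KD. Every simulated gene had the same preset dispersion, not one estimated from these data, so these rates do not give the power of the real comparisons. No libraries were duplicates: the lowest chi-square per degree of freedom between replicates was 3.92. Motifs were read from RefSeq windows on GRCm38.p6 and from annotated transcripts. Members and gene lists were chosen with earlier results of these data known. By a fixed rule the text names, leaving out gene models, the 15 members with the highest L1C CPM, the 6 with the largest smaller ratio, up to 6 with exons over at least 90% of the span and no overlap, members in lists of exact symbols, the 4 smallest KD p-values in each direction, the 3 highest and 3 lowest L1C IP/input, the 3 lowest changes in IP from MII to L1C, the genes at each limit, and the 4 highest members with a same-strand overlap. Other named genes were chosen after their values were seen.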

Additional observations from a re-analysis of the deposited data

How the results depend on the processing

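The number of members depended on the limits of the rule: 181 became 533 at 2 times and 51 at 5 times both other stages, 219 and 142 with an L1C CPM of at least 5 or 20, 168 with TMM-scaled CPM (163 shared), and 80 when only genes without overlap were allowed. Leaving out each input library gave 176 to 192. In alternatives added after seeing the data, summing CPM over overlapping spans gave 207 genes (152 shared) and IP CPM gave 131 (88 shared). The 167 members higher in the L1C IP than in the MII IP were 163 with DESeq2, 175 by library size alone, 165 without a filter, 166 from the 9 IP libraries and 160 to 167 with a library left out, and the 179 higher than in the L2C IP were 178 to 179 and 179 to 180. The KD counts of 32 higher and 77 lower became 28 and 69 with DESeq2, 28 and 80 by library size alone, 35 and 87 without a filter, and 26 to 30 and 67 to 74 with a library left out, where a lone KD library is assumed to vary like Ctrl. The merged table with all 6 libraries, which ends on chromosome 7 and tested 79 members, gave 19 and 40.

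Median IP/input of members moved with the scaling. By library size alone the MII median was 0.61, that of L1C 0.07 and that of L2C 0.19, and DESeq2 gave 0.44 for MII. With a library left out it ran from 0.31 to 0.41 at MII, with the lowest value without MII input replicate 3, from -0.27 to -0.20 for L1C, and from -0.14 to 0 for L2C.

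The same replicate number did not pair samples (correlations of deviations from -0.154 to 0.095 for equal numbers). With a replicate block the counts were 166 and 179 for the IP contrasts and 29 higher and 76 lower for the KD, and the IP/input medians were 0.36, -0.23 and -0.04.

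Of 2008 values of named genes under alternatives, 1962 kept direction and call, 26 lost and 6 gained the call, and 14 changed sign, none of which had passed the threshold. Fgfr2 in the L1C IP against the L2C IP was -0.28 with DESeq2 and -0.20 by library size alone, and -0.03 to 0.22 with a library left out. In the KD, Fgfr2 was 0.01 with the replicate block and -0.56 to 0.23 with a library left out. Ifit1bl2 was -0.06 by library size alone, -0.01 without a filter and -0.03 to 0.08 with a library left out, Ttbk2 -0.41 to 0.11 and Samd10 -0.24 to 0.49. Tfam in the L1C IP against the MII IP was 0.04 by library size alone. The cause of these shifts was not tested.

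Intron and exon reads were not separated at L1C, the KD was read only at L2C, and a change of poly(A) tail and a change of RNA amount cannot be told apart. Members near 1 CPM rest on few counts, and a difference there was not always detectable at this depth.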
